A study of Mus musculus with 30 samples.

Results

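Beta-adrenergic signalling in the heart was followed through 9 genes, namely the receptor gene Adrb1, the adenylyl cyclase genes Adcy5, Adcy6 and Adcy9, and the phosphodiesterase genes Pde3a, Pde4b, Pde4d, Pde7a and Pde8a. They were picked by name from this pathway, with earlier results from these same counts already known, and every comparison below may have informed the choice. The adjusted p-values of these genes are therefore given as descriptions, and nothing is read from how many of the 9 passed a threshold. All 9 were among the 20764 genes listed for hearts and among the 15443 tested there, and 8 of the 9 were among the 14760 genes tested in HL-1 cells, where Pde3a fell below the filter on low counts.

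RNA was sequenced from 18 hearts of female C57BL6 mice, with 3 hearts in each of 6 groups and 1 library per mouse. Young mice (2 months) and old mice (12 months) without supplementation were both labelled MQ, and the old ones are called old water below. They were compared with old mice (12 months) that drank nicotinamide riboside (NR, a precursor of NAD+) at 3 g/L from the age of the young group onwards. Hearts of each kind were collected at ZT10, in the light phase, and at ZT22, in the dark phase, so that time and age could be separated in one design. HL-1 cells, a line derived from a mouse atrial tumour and labelled as cardiomyocytes, were sequenced as 12 cultures, 3 each untreated, with FK866 (an inhibitor of the NAD+ salvage enzyme NAMPT), with FK866 and NR, and with FK866, NR and Ex527 (an inhibitor of the deacetylase SIRT1). Only female mice of a mixed C57BL6J and C57BL6N background were measured, at 2 times of day, and a shift in the phase of a rhythm cannot be told apart from a change in its size with 2 times. In whole hearts, fewer cells of a type and less RNA per cell cannot be told apart either.

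In the pathway itself, noradrenaline binds the beta-1 receptor (Adrb1), the stimulatory G protein activates adenylyl cyclases at the membrane, and the cyclic AMP they make acts on protein kinase A and on the exchange factors of the Epac family. In cardiac muscle this raises rate, force and speed of relaxation, and Adcy5 and Adcy6 are the main cyclases of the adult myocyte. Phosphodiesterases break cyclic AMP down close to where it is made. The PDE3 family is inhibited by cyclic GMP, the PDE4 family is specific for cyclic AMP and is phosphorylated by protein kinase A, and the PDE7 and PDE8 families bind cyclic AMP with high affinity.

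The promoters of these genes were read from RefSeq for GRCm38.p6, the build of the gene models, in windows from 250 bases before to 50 bases after an annotated start. Windows were listed for 6 of the 9 genes, 9 windows in all, and for Adcy6, Pde3a and Pde7a none was used here. Those of Pde8a and Pde4b are shown because these genes were both lower at ZT10 than at ZT22 in young hearts, described below. The Pde8a window ends before the 5′ end of the gene model given below (chr7:81213596), so its annotated start lies outside that model. For Pde4b, 4 annotated starts inside the gene each have a window, and none of these lies at the 5′ end of the gene model (chr4:102087543). The 2 printed are those that hold a match to one of the motifs searched. Each is written 5′ to 3′ on the + strand, and capitals mark a match, on either strand, to the core of the cyclic AMP response element (TGACG) or the core of the ROR element (AGGTCA).
Pde8a, chr7:81213015-81213314 (+): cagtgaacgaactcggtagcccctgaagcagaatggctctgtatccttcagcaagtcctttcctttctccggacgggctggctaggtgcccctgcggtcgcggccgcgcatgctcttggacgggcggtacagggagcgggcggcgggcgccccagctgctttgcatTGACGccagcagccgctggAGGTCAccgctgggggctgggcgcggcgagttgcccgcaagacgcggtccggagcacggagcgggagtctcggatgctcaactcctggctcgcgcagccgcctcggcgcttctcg
Pde4b, chr4:102421305-102421604 (+): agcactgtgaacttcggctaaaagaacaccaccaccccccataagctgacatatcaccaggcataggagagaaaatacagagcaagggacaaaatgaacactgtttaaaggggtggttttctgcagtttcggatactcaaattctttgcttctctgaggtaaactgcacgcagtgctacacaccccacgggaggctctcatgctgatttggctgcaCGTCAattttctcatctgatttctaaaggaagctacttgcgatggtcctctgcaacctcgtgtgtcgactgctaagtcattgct
Pde4b, chr4:102587308-102587607 (+): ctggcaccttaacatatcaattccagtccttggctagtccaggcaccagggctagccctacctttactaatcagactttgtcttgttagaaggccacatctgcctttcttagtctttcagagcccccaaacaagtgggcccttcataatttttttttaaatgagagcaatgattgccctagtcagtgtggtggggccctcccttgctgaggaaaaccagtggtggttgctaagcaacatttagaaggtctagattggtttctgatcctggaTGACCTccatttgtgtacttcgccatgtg

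In the Pde8a window, TGACG began -84 bases from the start and AGGTCA -65 bases from it, both on the strand of the gene. In the upstream Pde4b window, the reverse complement of TGACG began at -34, and in the downstream one the reverse complement of AGGTCA began at +22. TGACG was found in 4 of the 9 windows, also in those of Adcy9 and Adrb1, against 20.8% of all 32851 promoter windows of the same length. AGGTCA was found in 2 of the 9, against 16.3% of all windows. Neither the E-box CACGTG, held by 7.15% of all windows, nor the full response element TGACGTCA, held by 1.79% and containing TGACG, was found in any of the 9. These are matches of letters, which do not show binding, and the read counts per gene do not tell which start a transcript used.

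Depth was 3922137 to 7562215 counted reads per heart (median 5534659) and 21337922 to 35000109 per HL-1 library (median 25529294), and values are normalised read counts, that is counts scaled to a common effective library size within the hearts or within the HL-1 cells. The hearts carried the markers of cardiac tissue: the summed level of Myh6, Tnnt2, Actn2, Myl2 and Myl3 was 3224 to 5450 CPM (counts relative to library size), against 680 to 999 for 4 fibroblast markers and 852 to 1242 for 3 endothelial markers. The replicates are separate mice, or separate cultures of the same cell line, and p-values measure the spread between these. NR was given by cage and the labels do not name the cages, so an effect of cage cannot be told apart from one of NR.

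In the GRCm38 gene models (GENCODE M21), each of the 9 genes is protein coding and none overlaps another coding gene on its own strand. Pde4b lies at chr4:102087543-102607259 on the + strand with 13 annotated transcripts, and Pde4d, with 20, at chr13:108449948-109953461 (+). The single gene counts sum over these isoforms, long and short. Pde3a lies at chr6:141249269-141507448 (+), Pde7a at chr3:19223108-19311322 (-) and Pde8a at chr7:81213596-81334533 (+). Adrb1 lies at chr19:56722199-56733113 (+), Adcy5 at chr16:35154877-35305738 (+), Adcy6 at chr15:98589973-98610076 (-) and Adcy9 at chr16:4287529-4420498 (-).

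**Figure D1:**
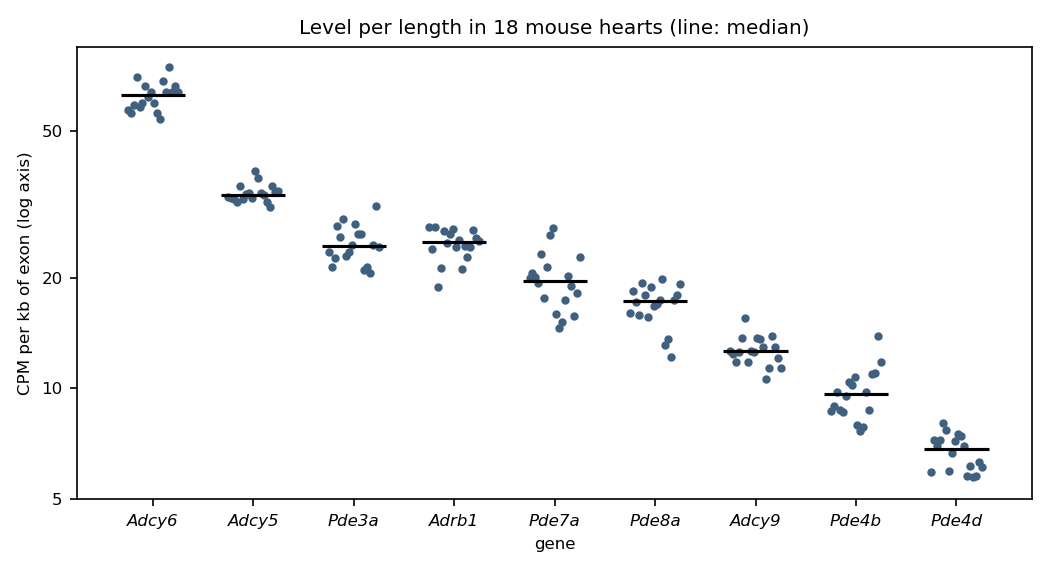
Level of the 9 genes in the 18 hearts, as CPM per kb of exon on a log axis, with 1 point per heart and a line at the median. Adcy6 stood highest, with a median of 63.0, and Pde4d lowest, with a median of 6.84, and the points of Pde3a and Adrb1 lie in the same range.

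Per kb of exon, Adcy6 was the most abundant of the 9 transcripts in hearts, with a median of 63.0 CPM per kb (lowest 54.1, highest 74.6, n = 18). Adcy5, the other major cyclase of the myocyte, followed at a median of 33.7 (31.2 to 38.9), and Adcy6 was above Adcy5 in 18 of 18 hearts, as Adcy5 was above Pde3a. Pde3a, with a median of 24.3 (20.6 to 31.3), and Adrb1, with a median of 25.02 (18.9 to 27.5), could not be put in order, since Pde3a was the higher in 7 of 18 hearts. The next places were also close: Pde7a (median 19.6, range 14.6 to 27.3) was above Pde8a (median 17.2, range 12.1 to 19.9) in 13 of 18 hearts, and below Adrb1 in 15. Adcy9, a cyclase that responds weakly to forskolin, had a median of 12.6 (10.6 to 15.5) and was below Pde8a in 17 of 18 hearts. Pde4b (median 9.66, range 7.65 to 13.9) and Pde4d (median 6.84, range 5.76 to 8.05) were lowest per kb, with Pde4b above Pde4d in 18 of 18 hearts and below Adcy9 in 16. This order depends on the length used, 1 per gene from the HL-1 annotation: 2491 bases for Adrb1, 10560 for Pde4b and 12006 for Pde4d. In CPM without length, group means were 70.8 to 92.1 for Pde4d and 82.6 to 129 for Pde4b, above the 55.5 to 65.5 of Adrb1.

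Between the times of day, Pde8a, Pde3a and Pde4b passed the test in young hearts, and Pde4b and Pde7a in old water hearts. No pattern by class of gene is read from this, since the 9 were picked with earlier results known. In the wider pathway list below, the cyclases Adcy4 and Adcy8 and the receptors Chrm2 and Adora1 were also called in young hearts. A call in young hearts alone, or in old hearts alone, is not itself a difference by age. Tested as an interaction below, that difference passed for Pde4b and Pde7a and not for Pde3a or Pde8a. In young hearts Pde8a, Pde3a and Pde4b were lower at ZT10 than at ZT22 by 0.49, 0.35 and 0.33 on the log2 scale. In old hearts on water Pde4b ran the other way, higher at ZT10 by 0.42 on the log2 scale, and Pde7a was higher at ZT10 by 0.72 there while its young hearts overlapped between the times. In old hearts given NR none of the 9 genes passed the threshold. The receptor Adrb1 and the cyclases Adcy5, Adcy6 and Adcy9 passed it in no heart comparison.

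**Figure D2:**
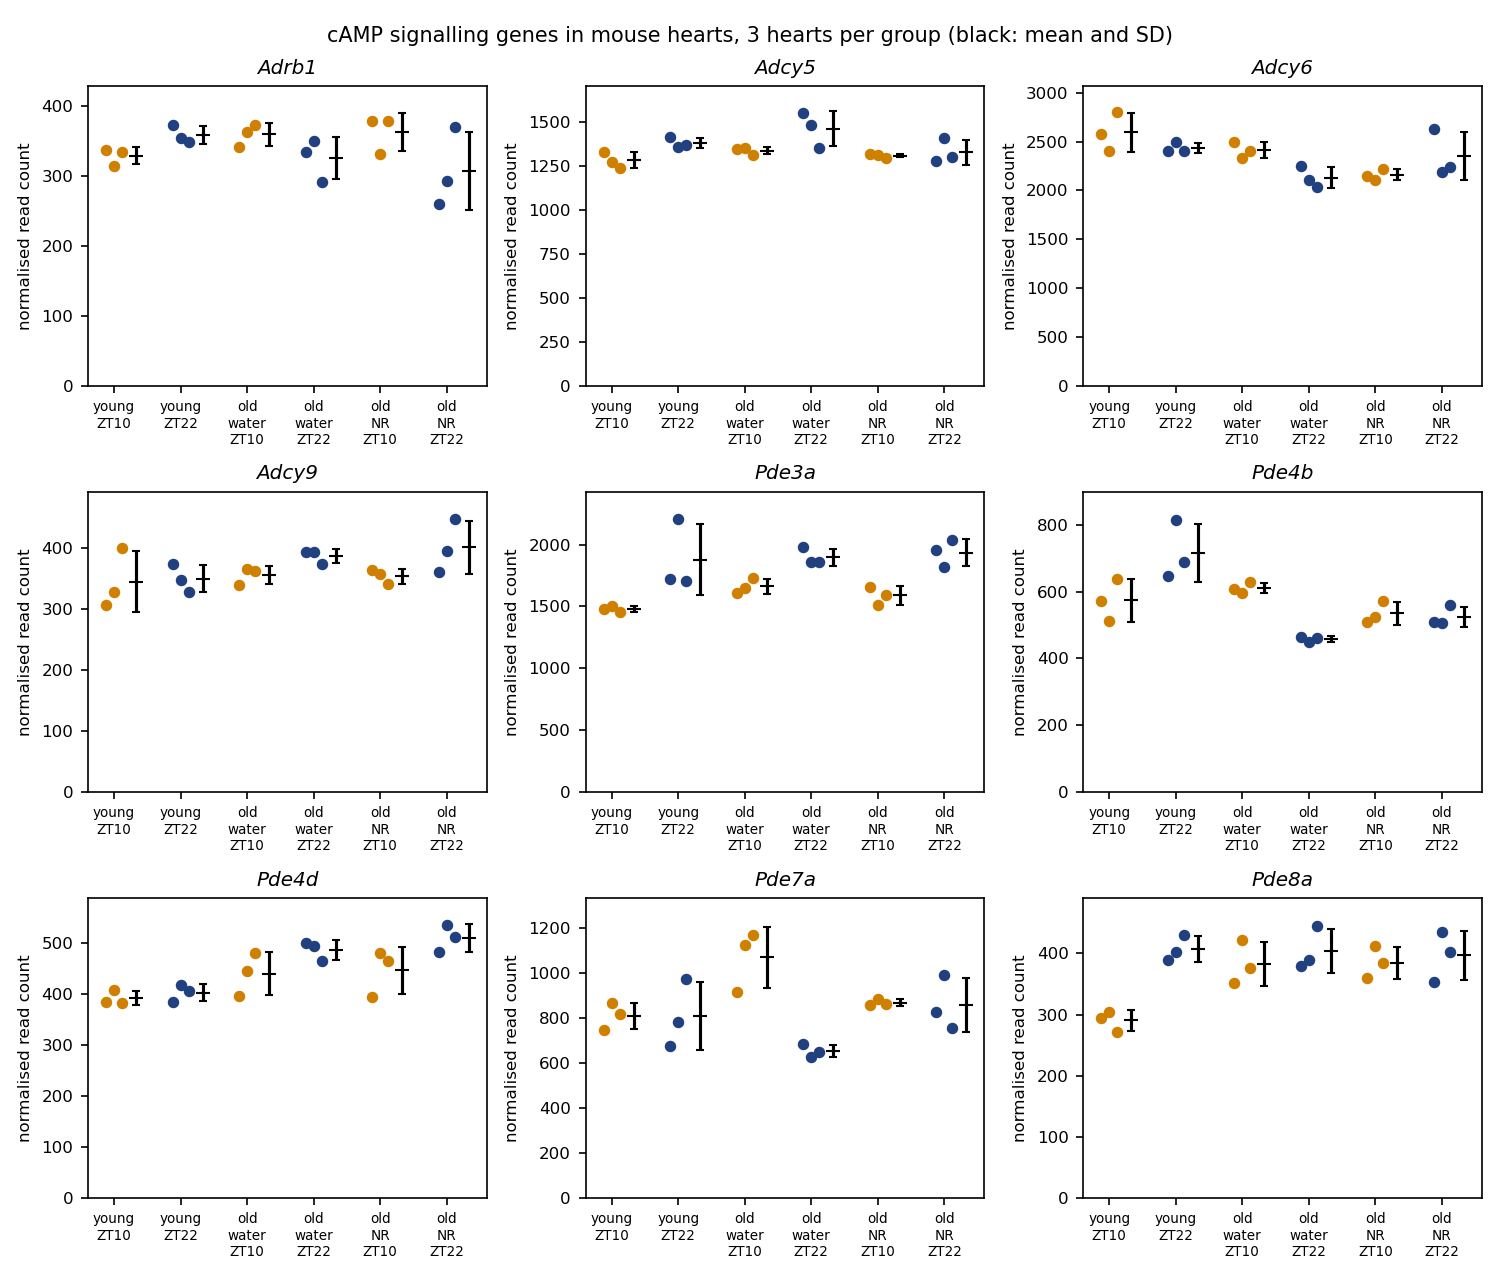
Normalised read count of each gene in every heart, with ZT10 in orange and ZT22 in blue, and the mean and SD of 3 hearts in black, on axes that start at 0. For Pde4b the young ZT22 hearts (646 to 813) are the highest and the old water ZT22 hearts (448 to 464) the lowest, and for Pde7a the old water hearts at ZT10 (916 to 1172) stand above those at ZT22 (628 to 684).

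For ZT10 against ZT22 in young hearts, 3 of the 9 genes passed an adjusted p of 0.05 in edgeR's quasi-likelihood test, all 3 lower at ZT10, beside 14.4% of all genes tested. Pde8a, a phosphodiesterase with high affinity for cyclic AMP, had 294, 305 and 272 normalised reads at ZT10 and 390.0, 402 and 430.1 at ZT22. The groups did not overlap, and the fold change was -0.49 on the log2 scale, SE 0.09, adjusted p = 0.000707. Pde3a, which lies at the sarcoplasmic reticulum of the myocyte, had 1479, 1505 and 1455 at ZT10 and 1727, 2209.7 and 1705 at ZT22 (-0.35 on the log2 scale, SE 0.09, adjusted p = 0.00796). The ZT10 hearts lay close together below all ZT22 hearts, among which replicate 2 stood above the other two. Pde4b, which shapes the cyclic AMP signal at the L-type calcium channel, had 571, 511 and 639 at ZT10 and 646, 813 and 689 at ZT22 (-0.33 on the log2 scale, SE 0.08, adjusted p = 0.00857). The highest ZT10 heart and the lowest ZT22 heart were nearly level, and replicate 2 was again the highest at ZT22. Without that heart Pde3a (-0.21, adjusted p = 0.083) and Pde4b (-0.22, adjusted p = 0.0814) lost the call, as did Pde4b without ZT10 replicate 2 (-0.25, adjusted p = 0.0713), whereas Pde8a (-0.50, adjusted p = 0.00279) kept it. The summed level of Pecam1, Cdh5 and Kdr, markers of endothelial cells, was 960 to 1011 CPM in young hearts at ZT10 and 1125 to 1242 at ZT22, with 1 of the 3, Kdr, called lower at ZT10. Of the 4 macrophage markers 2, Cd68 and Mrc1, were called higher at ZT10 (summed level 170 to 204 against 164 to 168 CPM), and of the 4 smooth muscle and pericyte markers 1, Myh11 (543 to 596 against 492 to 518 CPM). The part of these in the values of the 3 phosphodiesterases was not tested.

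For ZT10 against ZT22 in old hearts on water, 2 of the 9 genes passed, both higher at ZT10, beside 4.2% of all genes tested. Pde7a, a phosphodiesterase specific for cyclic AMP, had 916, 1125 and 1172 normalised reads at ZT10 and 684, 628 and 649 at ZT22. Every ZT10 heart was above every ZT22 heart (0.72 on the log2 scale, SE 0.11, adjusted p = 0.000525), a mean 1.64 times as high. Pde4b had 608, 596 and 628 at ZT10 and 464, 448 and 460.5 at ZT22. These groups were also apart and both were tight (0.42 on the log2 scale, SE 0.08, adjusted p = 0.00494). Pde8a, at 351, 422 and 376 at ZT10 and 379, 389 and 446 at ZT22, overlapped (-0.08 on the log2 scale, SE 0.09, adjusted p = 0.646). Pde3a, at 1612, 1652 and 1732 at ZT10 and 1979, 1859 and 1859 at ZT22, did not overlap but missed the threshold (-0.19 on the log2 scale, SE 0.09, adjusted p = 0.247). Atrial markers also differed here, with a summed level of Myl7, Myl4, Sln and Nppa of 338 to 505 CPM at ZT10 and 117 to 310 at ZT22 and 1 of the 4, Myl7, called higher at ZT10. Of the 4 macrophage markers 1, Csf1r, was called lower at ZT10 (summed level 202 to 224 against 238 to 273 CPM), and of the 4 fibroblast markers 1, Pdgfra (811 to 932 against 829 to 968 CPM). Their part in the values of Pde7a and Pde4b was not tested.

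For ZT10 against ZT22 in old hearts given NR, 0 of the 9 genes passed with edgeR, beside 5.37% of all genes tested, and 4 of the 9 had an unadjusted p under 0.05. DESeq2 called 1, Pde3a. Pde3a had 1662, 1512 and 1594 at ZT10 and 1956, 1816 and 2039 at ZT22, so that it was lower at ZT10 in each of the 3 kinds of heart without overlap (-0.29 on the log2 scale, SE 0.08, adjusted p = 0.0516 in old NR hearts). The 3 phosphodiesterases Pde4b, Pde7a and Pde8a overlapped between the times. Pde4b had 508, 522 and 572 at ZT10 and 509, 505 and 559 at ZT22, with a 95% interval of the log2 difference from -0.15 to 0.20. Pde7a had 859, 886 and 864 at ZT10 and 828, 993 and 757 at ZT22 (interval -0.21 to 0.24), with ZT22 values spread around tight ZT10 values. Pde8a had 359, 412 and 384 at ZT10 and 354, 434 and 403 at ZT22 (interval -0.23 to 0.12). Pde4d, at 394 to 481.5 at ZT10 and 481.7 to 536 at ZT22, was barely apart (-0.19 on the log2 scale, SE 0.07, adjusted p = 0.151). Of the 4 smooth muscle and pericyte markers 1 was called higher at ZT10 (summed level 457 to 490 against 389 to 408 CPM). Of the 4 fibroblast markers 1 was called lower (680 to 773 against 709 to 796 CPM). The atrial markers summed to 110 to 128 against 160 to 222 CPM, with 0 of the 4 called. The part of these was not tested.

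**Figure D3:**
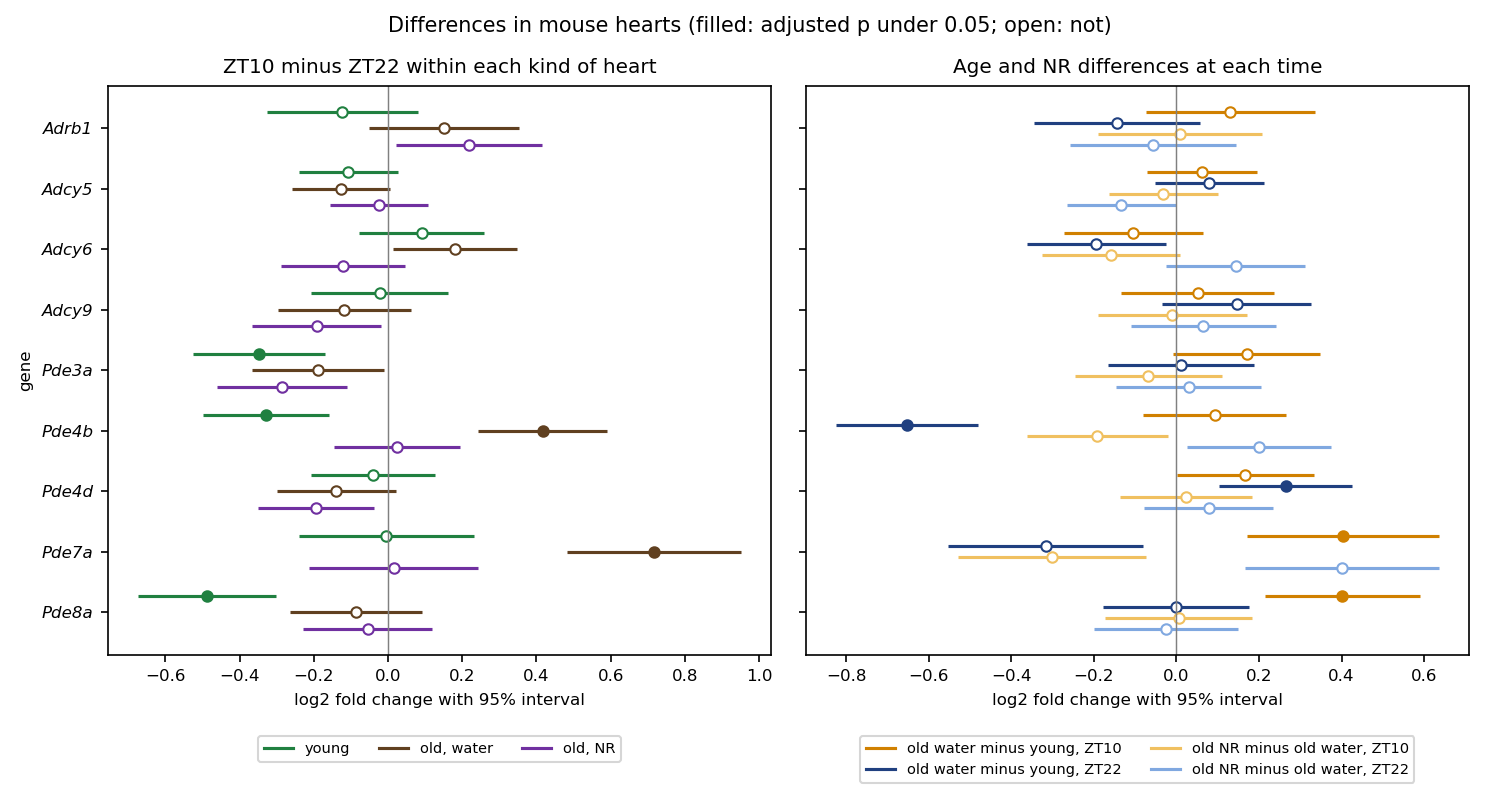
Log2 fold changes of the 9 genes with 95% intervals, on the left ZT10 minus ZT22 in young, old water and old NR hearts, and on the right the age and NR differences at each time, with filled points at an adjusted p under 0.05. Pde4b lies at -0.33 in young and at 0.42 in old water hearts, and Pde7a at 0.72 in old water hearts, with its young and old NR points near 0.

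Whether the time difference itself depended on age was tested as an interaction, old water minus young, in which 2 of the 9 genes passed beside 6.89% of all genes tested. The time difference of Pde4b was larger in old water hearts by 0.75 on the log2 scale (SE 0.12, adjusted p = 0.000589), from lower at ZT10 in young to higher at ZT10 in old. That of Pde7a was larger by 0.72 (SE 0.16, adjusted p = 0.00848). Both kept the call without any of the 12 hearts in turn. For Pde8a the interaction was 0.40 on the log2 scale, SE 0.12, adjusted p = 0.0534, above the threshold here and below it with a replicate block (adjusted p = 0.0248), with DESeq2 size factors (0.0463) and with library size as a covariate (0.00601), so that this call turned on the setting. Pde3a, with an interval of -0.09 to 0.41, and the remaining 5 genes gave no difference between the ages that passed. In the same interaction 3 of the 4 macrophage markers, 1 of the 4 fibroblast markers and 1 of the 4 smooth muscle and pericyte markers were called, all with the smaller ZT10 minus ZT22 difference in old water hearts, and their part in these values was not tested.

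The same old hearts on water served in the age and in the NR comparisons, which are thus not independent, and their values are set side by side. In the NR by time interaction, old NR minus old water, 0 of the 9 genes passed with edgeR, beside 0.343% of all genes tested, and 3 of the 9 had an unadjusted p under 0.05, while DESeq2 called 1, Pde7a. The time difference of Pde7a was smaller with NR by 0.70 on the log2 scale (-0.70, SE 0.16, adjusted p = 0.0557), and it passed under 5 of the 6 other settings, with an adjusted p from 0.014 to 0.0542 over these 6. With the replicate number as a block the adjusted p was 0.0256. For Pde4b the interaction was -0.39 on the log2 scale, SE 0.12, adjusted p = 0.207. In the 3 kinds of heart the ZT10 minus ZT22 difference of Pde4b was thus -0.33, 0.42 and 0.02 for young, old water and old NR. Of the 4 macrophage markers 1, and of the 4 smooth muscle and pericyte markers 1, were also called in this NR by time interaction. Both had the larger ZT10 minus ZT22 difference with NR, and their part in these values was not tested.

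The ages were also compared at each time. Against young hearts at ZT10, old water hearts had 2 of the 9 genes called, both higher, beside 5.87% of all genes tested. Pde8a had 351, 422 and 376 in old and 294, 305 and 272 in young hearts, without overlap (0.40 on the log2 scale, SE 0.09, adjusted p = 0.00981). Pde7a had 916, 1125 and 1172 in old and 749, 865 and 816 in young hearts, also without overlap (0.40 on the log2 scale, SE 0.11, adjusted p = 0.0342), but the Pde7a call was lost without any of 5 of the 6 hearts and the Pde8a call without old replicate 2 or young replicate 3. Pde4b at ZT10 had an interval of -0.08 to 0.27 on the log2 scale. All 4 smooth muscle and pericyte markers were called lower in old than in young hearts at ZT10, with a summed level of 394 to 452 against 543 to 596 CPM, as was 1 of the 4 fibroblast markers (811 to 932 against 939 to 999 CPM), while 1 of the 4 macrophage markers was called higher (202 to 224 against 170 to 204 CPM). Their part in these values was not tested.

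At ZT22 old water hearts differed from young hearts in 2 of the 9 genes, beside 14.1% of all genes tested. Pde4b had 464, 448 and 460.5 in old and 646, 813 and 689 in young hearts. Every old heart was below every young heart, at a mean 0.639 times the young level (-0.65 on the log2 scale, SE 0.08, adjusted p = 2.34e-05), and the call held without any of the 6 hearts. Pde4d, the close relative of Pde4b that acts at the beta receptors and at the ryanodine receptor, went the other way, with 499.8, 495 and 465 in old and 384, 418 and 407 in young hearts. The groups were apart (0.26 on the log2 scale, SE 0.08, adjusted p = 0.0263), but the call was lost with DESeq2 (adjusted p = 0.0564) and without old replicate 2, young replicate 1 or young replicate 3. Pde7a was lower in old hearts with overlapping values and missed the threshold (-0.32 on the log2 scale, SE 0.11, adjusted p = 0.0675), and Pde8a had an interval of -0.18 to 0.18 around 0. All 4 macrophage markers (Csf1r, Adgre1, Cd68 and Mrc1) were called higher in old hearts at ZT22, with a summed level of 238 to 273 against 164 to 168 CPM. Of the fibroblast and of the smooth muscle and pericyte markers, 1 of 4 was called higher and 1 of 4 lower in each list, and 1 of 2 T cell markers was called higher. The 3 endothelial markers summed to 963 to 1159 CPM in old and 1125 to 1242 in young hearts, with 0 of the 3 called. The part of these in the values of Pde4b and Pde4d, which leukocytes also express, was not tested.

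NR against water in old hearts gave 0 of the 9 genes at ZT10, beside 0.285% of all genes tested, and 0 of the 9 at ZT22, beside 0.35%. DESeq2 also called 0 at either time, and 2 of the 9 at ZT10 and 3 at ZT22 had an unadjusted p under 0.05. The values of Pde7a and Pde4b did not overlap between NR and water at either time, without passing the threshold. Those of Adcy6 did not overlap at ZT10 either (-0.16 on the log2 scale, SE 0.08, adjusted p = 0.515). The share of all genes that lie apart in this way was not computed, here or in the other comparisons of hearts. At ZT10 Pde7a had 859, 886 and 864 with NR and 916, 1125 and 1172 with water (-0.30 on the log2 scale, SE 0.11, adjusted p = 0.318), and at ZT22 it had 828, 993 and 757 and 684, 628 and 649 (0.40 on the log2 scale, SE 0.11, adjusted p = 0.135). NR hearts were thus all below water hearts at ZT10 and all above them at ZT22. Pde4b stood likewise, below at ZT10 (-0.19 on the log2 scale, SE 0.08, adjusted p = 0.419) and above at ZT22 (0.20 on the log2 scale, SE 0.08, adjusted p = 0.357). For the other 7 genes the log2 difference lay between -0.16 and 0.14 at both times. At ZT10 the atrial markers summed to 110 to 128 CPM with NR and 338 to 505 with water, with 3 of the 4 called lower. At ZT22, 3 of the 4 macrophage markers (summed level 173 to 194 with NR against 238 to 273 CPM with water), 2 of the 4 smooth muscle and pericyte markers (389 to 408 against 447 to 529) and 1 of the 4 fibroblast markers (709 to 796 against 829 to 968) were called lower with NR. The part of these in the values of Pde7a and Pde4b was not tested.

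Adrb1, the receptor itself, had group means of normalised reads from 308 to 363 over the 6 heart groups. It had 337, 315 and 335 in young hearts at ZT10 and 373, 354 and 348 at ZT22, and in old NR hearts 379, 331 and 378 at ZT10 and 261, 293 and 369.5 at ZT22, where 1 ZT22 heart stood above the other two. The age difference had a 95% interval of -0.07 to 0.34 at ZT10 and of -0.35 to 0.06 at ZT22 on the log2 scale. In old NR hearts the time difference was 0.22 on the log2 scale, SE 0.09, adjusted p = 0.216, and without ZT22 replicate 3 it passed (0.38, adjusted p = 0.0177). For Adcy5 the group means ranged from 1283 to 1463, and at ZT22 in old water hearts, its highest group, the values were 1549.6, 1487 and 1354. Adcy6 ranged from 2130 in old water hearts at ZT22 to 2593 in young hearts at ZT10, and its age difference at ZT22 was -0.19 on the log2 scale, SE 0.08, adjusted p = 0.117. Adcy9 ranged from 344 to 401. Over these 4 genes and both times, the 95% intervals of the age difference lay between -0.36 and 0.34 on the log2 scale.

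Among the 9 genes, the values over the 18 hearts moved together most for Adcy6 and Pde8a, in opposite directions (Pearson's r = -0.68, and -0.79 after removal of the group means). Next came Adcy6 and Pde4b (r = 0.59, and 0.42 within groups) and Pde4d and Pde8a (r = 0.56, and 0.49 within groups). These hearts share groups and a normalisation, and the correlations are descriptions. Over all genes with an average count of at least 50 (11075 genes), the transcript closest to Pde4b over the 18 hearts was Itga5 (r = 0.87), to Pde7a Zfp367 (r = 0.79), to Pde8a Edn3 (r = 0.90) and to Pde3a Kif1b (r = 0.91). For Pde4d it was Golm1 (r = 0.84), for Adcy5 Iqsec1 (r = 0.86), for Adcy6 Pcp4l1 (r = 0.91), for Adcy9 Rfwd3 (r = 0.82) and for Adrb1 Bmpr1a (r = 0.76).

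The rest of the pathway was read from a list of 68 further genes, of which 65 were tested in hearts. In young hearts 6 of these were higher and 10 lower at ZT10 than at ZT22 (24.6%, beside 14.4% of all genes tested), with a median log2 fold change of 0.02, against 0.01 over all genes. The muscarinic receptor Chrm2 and the adenosine receptor Adora1, which oppose the beta receptor through the inhibitory G protein, were both higher at ZT10. Grk5, a kinase that desensitises the receptor, fell from a mean of 999 ± 189 normalised reads (SD, n = 3) at ZT22 to 551 ± 90.4 at ZT10 (log2 fold change -0.86, SE 0.13, adjusted p = 7.57e-05), and Grk2 was lower as well. Of the 5 other cyclases tested, Adcy4 and Adcy8 were lower at ZT10, Adcy4 at 364 ± 10.9 against 522 ± 26.3 (log2 fold change -0.52, SE 0.07, adjusted p = 2.80e-05). Of the 11 other phosphodiesterases, Pde7b, the sister gene of Pde7a, was higher at ZT10 (477 ± 30.3 against 296 ± 35.1, log2 fold change 0.69, SE 0.09, adjusted p = 2.29e-05), as was Pde1c, and none was lower. The effectors Rapgef3, which encodes Epac1 (log2 fold change -0.41, SE 0.07, adjusted p = 0.000557), Popdc3, a membrane protein that binds cyclic AMP (log2 fold change -0.46, SE 0.08, adjusted p = 0.00028), and Bves were lower at ZT10. So were the transcription factor genes Creb1 and Crem, a target and repressor of the pathway (112 ± 5.73 against 211 ± 72.0, log2 fold change -0.93, SE 0.17, adjusted p = 0.000558). None of the 9 genes for subunits and inhibitors of protein kinase A, and none of the 6 for its substrates in the heart, was called in young hearts. Leaving out single hearts, the call of Chrm2 was lost without any of the 6. The calls of Akap5 (5 of 6 hearts), Bves (4), Grk2 (3), Pde1c (3), Adcy8 (1) and Akap7 (1) were lost as well. Those of Adora1, Grk5, Adcy4, Pde7b, Akap1, Rapgef3, Popdc3, Creb1 and Crem held.

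In old water hearts 0 of the 65 were higher and 6 lower at ZT10 (9.23%, beside 4.2% of all genes), namely Hcn4, a pacemaker channel gated by cyclic AMP (log2 fold change -0.62, SE 0.12, adjusted p = 0.0048), Pde1b, Arrb1, Grk3, Crtc1 and Akap1. In old NR hearts 2 were higher, Adcy4 and Adora1, and 4 lower, Hcn4, Adcy8, Akap1 and Grk3 (9.23%, beside 5.37% of all genes). Of these, Adora1 and Grk3 each lost the call without any of 5 of the 6 hearts, Adora1 also with only the groups compared and Grk3 also with DESeq2 and with no filter, and Adcy4 lost it without 1 heart, ZT22 replicate 2. Akap1, which anchors protein kinase A to mitochondria, was the gene of the list called lower at ZT10 in all 3 kinds of heart, with means at ZT10 and ZT22 of 1369 and 1714 in young, 1495 and 1815 in old water, and 1455 and 1928 in old NR hearts, although 3 other settings, and leaving out any of 5 of the 6 hearts, ended the call in old water hearts. Of the 6 calls in old water hearts that of Hcn4 held without any single heart. The difference between the ages in this time effect passed the test for 10 of the 65 (15.4%, beside 6.89% of all genes), with Adcy4 (log2 fold change 0.67, SE 0.10, adjusted p = 0.000417), Pde7b (log2 fold change -0.79, SE 0.13, adjusted p = 0.000862) and Crem (log2 fold change 1.27, SE 0.24, adjusted p = 0.00279) among those of smallest p. Adcy4, Rapgef3, Creb1, Crem, Grk2, Grk5 and Popdc3 had the larger, and Pde7b, Hcn4 and Crtc1 the smaller, ZT10 minus ZT22 difference in old water hearts. In the NR by time interaction 0 of the 65 were called by edgeR, and 6 had an unadjusted p under 0.05.

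**Figure D4:**
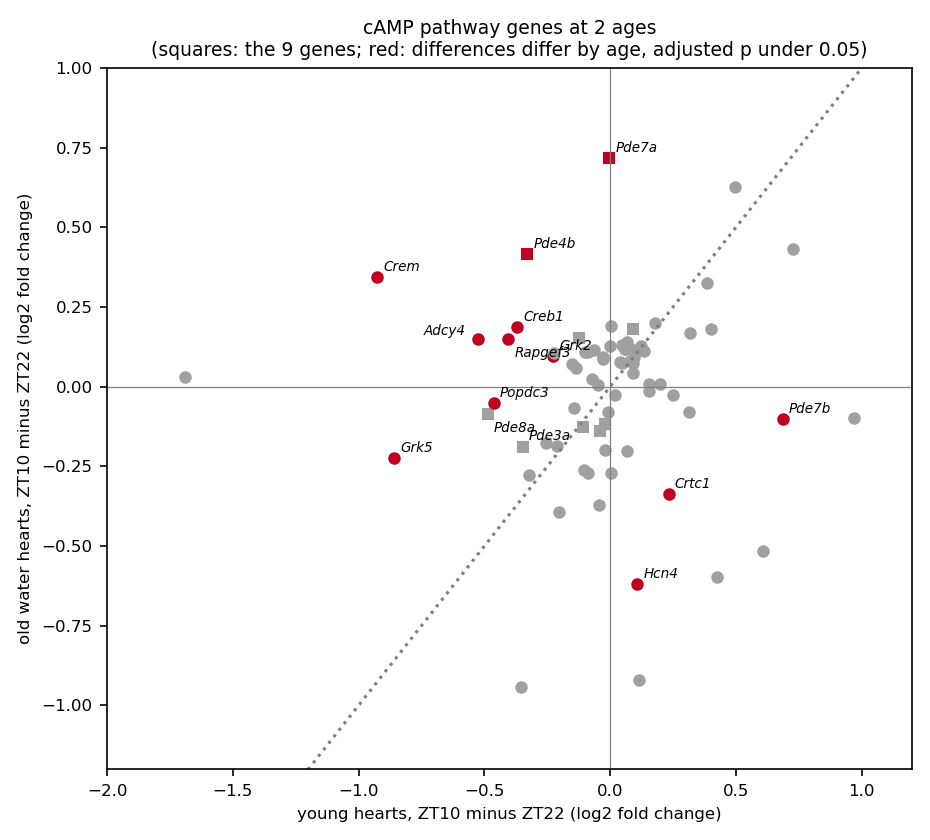
ZT10 minus ZT22 log2 fold change in young (x) and in old water hearts (y) for the 9 genes (squares) and the 65 other pathway genes tested (circles), in red where the difference between the ages passed an adjusted p of 0.05, with a dotted line at equal values. Pde4b, Crem, Creb1, Adcy4, Rapgef3 and Grk2 lie left of 0 in young and above 0 in old water hearts.

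With age, 5 of the 65 were higher and 1 lower at ZT10 (9.23%, beside 5.87% of all genes), and 6 higher and 6 lower at ZT22 (18.5%, beside 14.1%). The gene lower at ZT10 was Hcn4, with 127 ± 14.2 normalised reads in old water and 231 ± 7.27 in young hearts (log2 fold change -0.87, SE 0.12, adjusted p = 0.000178), a call that held under all 6 other settings and without any single heart. Grk5 and Rapgef4, which encodes Epac2, were higher at ZT10, and lost the call without any of 4 and 3 of the 6 hearts. Pde11a, which breaks down both cyclic AMP and cyclic GMP, was higher in old water than in young hearts at both times, at a low level, with 59.2 ± 9.26 against 10.4 ± 8.21 normalised reads at ZT22 (log2 fold change 2.60, SE 0.36, adjusted p = 5.22e-05) and 32.2 ± 9.49 against 10.5 ± 3.76 at ZT10. Adcy1 and Prkar1b were called higher at both times as well, but these calls, and that of Pde11a at ZT10, were lost without any of 3 or more single hearts, and DESeq2 did not call Prkar1b at either time. At ZT22 Adcy4 (log2 fold change -0.58, SE 0.07, adjusted p = 1.81e-05), Rapgef3 (log2 fold change -0.46, SE 0.07, adjusted p = 0.000217), Crem (log2 fold change -0.90, SE 0.16, adjusted p = 0.000831), Popdc3, Creb1 and Grk2 were lower in old hearts, whereas Pde7b, Arrb1, an arrestin of the receptor (log2 fold change 0.38, SE 0.07, adjusted p = 0.000735), and Crtc1 were higher. Of these 9 calls those of Crtc1 and Grk2 were each lost without 1 heart. The part of the marker differences described above in the values of the pathway genes was not tested, for age or for time of day. NR against water gave 0 of the 65 at either time with edgeR, with 7 at an unadjusted p under 0.05 at each time, and DESeq2 called 1 at ZT10, Adcy1, and 0 at ZT22.

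The HL-1 libraries went against their label as cardiomyocytes, and one of them stood apart. The summed level of Myh6, Tnnt2, Actn2, Myl2 and Myl3 was 0.173 to 1.77 CPM, with Myl2 and Pln at 0 counts in all 12 libraries, and that of the 4 atrial markers 0.28 to 1.62 CPM. The 4 fibroblast markers summed to 650 to 913 CPM, with 11141 to 26657 counts of Col1a1, while the cardiac transcription factor Gata4 had 1831 to 3275 counts. FK866 plus NR replicate 1 alone held genes of brain: Snap25, Mobp and Gad1 had 561, 409 and 96 counts in it and 0 in the other 11 libraries, and 10 such genes, chosen after their values were seen, summed to 253 CPM against 28.5 to 38.2. Results of comparisons with the FK866 plus NR group are therefore given with and without this library. The culture medium of HL-1 cells contains noradrenaline, an agonist of the receptor.

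In HL-1 cells the order of levels differed from that in hearts in several places, as the authors' FPKM (fragments per kb of transcript, scaled to depth) show. Adcy6 again led with a median FPKM of 19.0 (14.2 to 21.9, n = 12), and Pde7a (4.22), Adcy9 (3.13), Pde4b (2.77) and Adrb1 (2.64) followed. Pde4b and Adrb1 could not be put in order, since Pde4b was higher in 7 of 12 libraries. Pde4d had a median of 0.36, and Pde8a and Adcy5 were under 0.1. Pde3a, which stood beside Adrb1 per kb in hearts, had 0 counts in 11 of 12 libraries and 5 counts in FK866 plus NR replicate 1. Over the depths of all 12 libraries, a count of 0 allows up to 0.0857 to 0.141 CPM (3 counts of the library, counting error only). The upper end is that of replicate 1, the shallowest library. The heart and HL-1 tables were normalised separately and their values are not compared.

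For FK866 against untreated cells, 0 of the 8 genes were called by edgeR, beside 4.59% of all genes tested at an adjusted p under 0.01 and a fold change over 1.5, and 5 of the 8 had an unadjusted p under 0.05, while DESeq2 also called 0. Pde7a had 710.3, 606 and 771 normalised reads with FK866 and 932, 824 and 766 untreated (-0.27 on the log2 scale, SE 0.09, adjusted p = 0.038). Pde4b had 588, 574 and 733 and 805, 720.2 and 777 (-0.28 on the log2 scale, SE 0.09, adjusted p = 0.0385). For both the highest FK866 culture lay within the untreated ones. Adrb1 (-0.31 on the log2 scale, SE 0.14, adjusted p = 0.132) and Adcy9 (-0.39 on the log2 scale, SE 0.17, adjusted p = 0.101) also had lower means, with overlapping cultures. Pde8a had counts of 15, 13 and 15 with FK866 and 8, 5 and 1 without it (1.75 on the log2 scale, SE 0.56, adjusted p = 0.0335), near the lowest level tested.

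**Figure D5:**
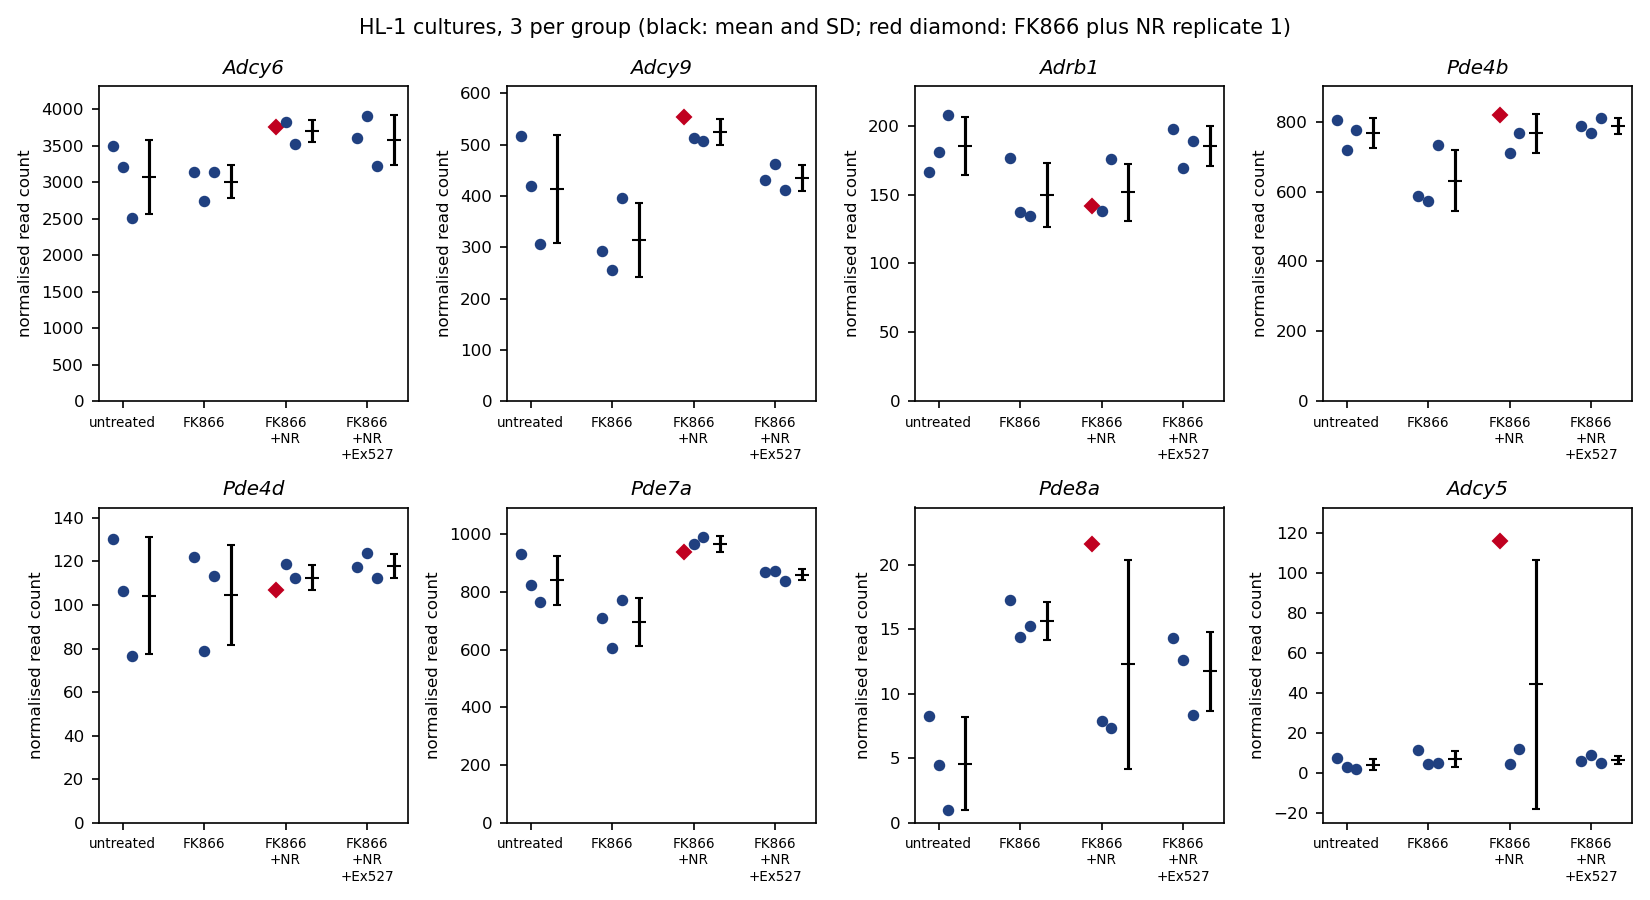
Normalised read count of the 8 tested genes in every HL-1 culture, with the mean and SD of 3 cultures in black and FK866 plus NR replicate 1 as a red diamond, on axes that start at 0 except for Adcy5, whose SD reaches below it. Adcy9 with FK866 and NR (507 to 553) lies above FK866 alone (256 to 395), and the red diamond stands apart for Adcy5 (116 against at most 11.9 in the other cultures).

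Adding NR to FK866 gave 1 of the 8 genes, Adcy9, beside 4.81% of all genes tested. Adcy9 had 553, 513 and 507 with FK866 and NR and 293, 256 and 395 with FK866 alone. The cultures did not overlap (0.73 on the log2 scale, SE 0.17, adjusted p = 0.00439), and without FK866 plus NR replicate 1 the difference was 0.69 with an adjusted p of 0.0185, which misses the threshold of 0.01. Leaving out any of 5 of the 6 cultures ended this call. In the same comparison 2 of the 4 fibroblast markers (summed level 787 to 813 with NR against 650 to 667 CPM with FK866 alone) and 1 of 3 smooth muscle and pericyte markers (14.0 to 16.3 against 12.5 to 13.4 CPM) were called higher, and Tnnt2 lower, and their part in the value of Adcy9 was not tested. Pde7a had 938, 968 and 992 with NR against 710.3, 606 and 771 without it, with no overlap (0.47 on the log2 scale, SE 0.09, adjusted p = 0.00134, and 0.49 with an adjusted p of 0.00417 without the library), below the fold change of 1.5. Adcy6, at 3752, 3821 and 3526 against 3136, 2748 and 3145, was apart as well (0.30 on the log2 scale, SE 0.10, adjusted p = 0.0433, and 0.29 with an adjusted p of 0.104 without the library). Adcy5 rested on the library that stood apart, with 97 counts in it and 4 and 13 in the other two, and its difference of 2.62 on the log2 scale (adjusted p = 0.0407) was 0.28 (adjusted p = 0.79) without it. For Adrb1 the interval was -0.28 to 0.34, and the difference was 0.08 (adjusted p = 0.776) without the library.

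Against untreated cells, FK866 plus NR gave 0 of the 8 genes with edgeR, beside 0.901% of all genes tested, with 4 of the 8 at an unadjusted p under 0.05. DESeq2 called 1, Adcy5, whose difference of 3.42 on the log2 scale (edgeR, adjusted p = 0.0235) was 1.09 (adjusted p = 0.297) without the same library. Pde4b overlapped the untreated cultures (interval -0.20 to 0.19, and -0.05 with an adjusted p of 0.765 without the library), and Adrb1 had a difference of -0.28 on the log2 scale, SE 0.14, adjusted p = 0.157 (-0.23 and 0.346 without the library). Adding Ex527 to FK866 and NR gave 0 of the 8 with edgeR and DESeq2, beside 0.596% of all genes tested, with 1 of the 8, Adcy5, at an unadjusted p under 0.05 (-2.70, and -0.36 without the library). Adcy9 had 430.4, 461 and 411 with Ex527, each below the FK866 plus NR cultures (-0.27 on the log2 scale, SE 0.16, adjusted p = 0.332, and -0.23 with an adjusted p of 0.563 without replicate 1), and Pde7a had 869, 873 and 838, also each below (-0.17 on the log2 scale, SE 0.09, adjusted p = 0.274, and -0.19 and 0.372 without it). FK866, NR and Ex527 against FK866 gave 0 of the 8 with edgeR and DESeq2, beside 1.27% of all genes tested, with 5 of the 8 at an unadjusted p under 0.05. Every culture with Ex527 lay above every FK866 culture for Pde4b (0.32 on the log2 scale, SE 0.09, adjusted p = 0.0349) and for Pde7a (0.31, SE 0.09, adjusted p = 0.0372). The same held for Adcy9 (0.46, SE 0.16, adjusted p = 0.0833) and Adcy6 (0.25, SE 0.10, adjusted p = 0.129). Pde8a, near the lowest level tested, lay below instead (-0.41, SE 0.48, adjusted p = 0.64). None of these passed the threshold, and the share of all genes whose cultures lie apart was not computed for any HL-1 comparison.

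Of the 68 other pathway genes, 40 were tested in HL-1 cells and few were called. For FK866 against untreated cells, for FK866, NR and Ex527 against FK866 plus NR, and for the same against FK866, 0 of the 40 passed with edgeR and with DESeq2, and 15, 10 and 11 had an unadjusted p under 0.05. For FK866 plus NR 1 was higher against FK866, Akap6, an anchor of protein kinase A at the nuclear envelope (log2 fold change 0.94, SE 0.24, adjusted p = 0.00982), and 1 against untreated cells, Akap9 (log2 fold change 0.87, SE 0.17, adjusted p = 0.00942). Without FK866 plus NR replicate 1 neither passed, at 0.70 (adjusted p = 0.0553) for Akap6 and 0.79 (adjusted p = 0.049) for Akap9.

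Over the 12 HL-1 libraries the values of Adcy9 and Pde7a moved together most (r = 0.95, and 0.88 within groups). Among 11579 genes the transcript closest to Adcy9 was Zfp608 (r = 0.98), to Pde7a Pign (r = 0.99), to Adcy6 Tnrc18 (r = 0.97), to Pde8a Rel (r = 0.95), to Pde4b Cdk6 (r = 0.93), to Pde4d Rttn (r = 0.93) and to Adrb1 Oaz1-ps (r = 0.91). For Adcy5 it was Ank3 (r = 0.90), in values that include the library that stood apart. These libraries share groups, and the correlations are descriptions.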

How the data were processed

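Messenger RNA of 18 hearts (stranded libraries) and 12 HL-1 cultures had been sequenced. The authors deposited raw counts per gene. For hearts, single-end reads were trimmed with Trimmomatic 0.39, aligned with STAR 2.7.10a to mm10, deduplicated with Picard 3.0.0 and counted with featureCounts 2.0.4 (Ensembl annotation), leaving out reads that map to several places or genes. For HL-1, the submitters' processing notes name HISAT2, and the counter was not given in the sources used here. A second heart table, DESeq2-normalised counts that the authors rounded (a score), served only for gene symbols, since the files of raw and normalised values carry each other's names. The deposited FPKM of HL-1 gave levels. Removing duplicates lowers the counts of abundant genes.

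Counts were tested with edgeR 4.0.16 (quasi-likelihood, TMM, R 4.3.3, limma 3.58.1), with all groups of a table in one fit, and p-values were adjusted over all genes by Benjamini-Hochberg. Hearts needed an average count over 5 and an adjusted p under 0.05. HL-1 cells needed edgeR's expression filter, an adjusted p under 0.01 and a fold change over 1.5. Intervals are 95% from the same fits, and ± is an SD. The script was checked on simulated counts. Alternatives were DESeq2 1.42.0, its size factors, no filter, only the groups compared, a replicate block, leaving out each replicate and, chosen after seeing the data, library size as a covariate.

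The members, the pathway and marker lists and the tests were chosen with earlier results of these data known. All 9 members are described, pathway genes by their call, with values for at most the 6 of smallest p per comparison, and for each member the gene of highest correlation.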

Additional observations from a re-analysis of the deposited data

Results flagged for a closer look

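The results below stood out because the ZT10 minus ZT22 difference itself differed between old water and young hearts (age by time interaction, edgeR, adjusted p under 0.05, log2 scale, old water minus young). Pde4b differed by 0.75 and Pde7a by 0.72. Of the other pathway genes, Crem differed by 1.27, Adcy4 by 0.67, Grk5 by 0.64, Creb1 by 0.56, Rapgef3 by 0.56, Popdc3 by 0.41 and Grk2 by 0.32, and in the opposite direction Pde7b by -0.79, Hcn4 by -0.73 and Crtc1 by -0.57. Without one or more single hearts the calls of Grk2 (7 of 12 hearts), Grk5 (7 of 12) and Popdc3 (6 of 12) were lost, Popdc3 was not called by DESeq2 and Grk5 not with only the groups compared, while the other 9 kept the call in all 12 such fits and under all 6 other settings. Of the 4 macrophage markers 3 were called in the same interaction, with a summed level at ZT10 and ZT22 of 170 to 204 and 164 to 168 CPM in young and of 202 to 224 and 238 to 273 CPM in old water hearts, as were 1 of 4 fibroblast markers (Pdgfra) and 1 of 4 smooth muscle and pericyte markers (Myh11). Their part in these differences was not tested.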

How the results depend on the processing

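Of the 9 genes, no log2 fold change that passed the test changed its sign under any setting, and the calls of Pde4b and Pde7a in the age by time interaction and between the times in old water hearts, of Pde8a in young hearts and of Pde4b with age at ZT22 held under all 6 other settings and without any single heart. The NR by time interaction, with 0 of the 9 called, gave 1 (Pde7a) with DESeq2, library size as a covariate, no filter, only the groups compared or the replicate block. Old NR hearts between the times, with 0, gave 1 (Pde3a) with DESeq2, library size or the block, and age at ZT22, with 2, gave 1 with DESeq2 (Pde4b) and 4 with library size (adding Adcy6 and Pde7a). Without a filter on low counts Adcy5 joined in each comparison with FK866 plus NR, giving 2 against FK866, 1 against untreated and 1 for Ex527 against it, and DESeq2 called 1 against untreated. The pathway genes then numbered 10, 10 and 9 in these comparisons (1, 1 and 0 with the filter) and 1 for Ex527 against FK866. FK866 plus NR replicate 1, the library with brain transcripts, is in all but the last of these. Only the groups compared gave 0 pathway genes for FK866 plus NR against FK866, and the block gave 0 against FK866 and 0 against untreated. Age at ZT10 gave 10 pathway genes with library size and 12 with only the groups compared, against 6. NR against water, with 0 pathway genes, gave at ZT10 1 with DESeq2, 1 with library size, 2 with only the groups compared and 1 with the block, and at ZT22 2 with library size and 2 with the block.

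Leaving out 1 replicate at a time, the members called ranged from 1 to 3 in young hearts, 0 to 1 in old NR hearts, 0 to 2 with age at ZT10, 1 to 2 with age at ZT22, 0 to 1 in the NR by time interaction and 0 to 1 for FK866 plus NR against FK866. Pathway genes ranged from 1 to 7 in old water hearts, 3 to 7 in old NR hearts, 1 to 4 with age at ZT10, 0 to 1 for FK866 against untreated, 0 to 3 for FK866 plus NR against FK866, 0 to 1 for it against untreated and 0 to 2 for Ex527 against FK866. The cause of these changes was not tested. Replicate numbers did not pair the samples: deviations from the group means of same-numbered samples had a median correlation of 0.023 in hearts (lowest -0.101) and 0.0135 in HL-1 cells (lowest -0.292).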
